A study of Homo sapiens with 18 samples.

Results

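HT29 is a human colon carcinoma line with mutant BRAF, and PLX4720 is a small-molecule inhibitor of mutant BRAF. The late phase of continued RAF inhibition was taken here as the 4 arrays of HT29 cells that had received PLX4720 and were collected on day 3 (2 arrays) or day 8 (2 arrays), out of 18 arrays in the series. Cells were grown as 3D cultures in Matrigel in DMEM with fetal calf serum, and from culture day 5 onward they received 3 µM PLX4720 or DMSO, the solvent. The days of collection are given as labelled. Whether they count from the start of treatment, which is likely, is not stated outright. The 4 DMSO arrays of HT29 from day 3 and day 8 served to show what changes with time in the same cultures without the inhibitor. The remaining arrays were HT29 at day 1 with either agent (2 arrays each) and Colo-205, another BRAF-mutant colon carcinoma line, with 1 array for each agent at days 1, 3 and 10. The series describes the HT29 duplicates as biological, all groups come from 1 line each, and Matrigel and serum were common to inhibitor and DMSO cultures.

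Mutant BRAF signals through MEK to ERK, and ERK output drives cell cycle entry, induces its own feedback genes and holds back differentiation in intestinal epithelium. The normal epithelium renews itself from stem cells whose daughters become absorptive enterocytes or secretory cells (goblet, Paneth and enteroendocrine cells), under transcription factors such as CDX2 and ATOH1. Interferon signalling induces antiviral genes, many of which carry interferon-stimulated response elements in their promoters. A dense 3D culture also changes with time by itself as cells slow their division and as oxygen and nutrients fall inside the cell masses.

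Values are log2 normalized Illumina BeadChip intensities, for which 1 unit is a doubling, and a change is the day 8 mean minus the day 3 mean. Of 20046 genes with a named probe, 12675 had a probe above background (detection p-value under 0.01) on at least 2 of the 12 HT29 arrays and were tested with limma, whose Benjamini-Hochberg adjusted p had to be under 0.05 (two-sided). The words rose and fell are used only for genes that passed. The ± sign gives the standard error over 2 arrays per day, with the spread estimated from all 12 HT29 arrays. The table has 47323 probes, of which 38.3% to 41.4% were above background on each array, and the PLX4720 duplicates correlated at 0.991 on both days. The header of the first day 8 array carried the word mean, and whether it holds an average is unknown. All 14 colorectal epithelial markers with a probe were above background on all 4 arrays. Of 23 non-epithelial markers with a probe, 12, among them COL1A2, PECAM1, PTPRC and CD3E, were above background on none of the 4. Another 8 were above background on all 4: VIM, ACTA2, TAGLN, CD14, CD68, LYZ, AIF1 and ITGAM. LUM was so on 3 arrays, and COL1A1 and DCN on 1. The summed level of the non-epithelial list was 16340 and 16730 at day 3 and 16280 and 16020 at day 8. That of the epithelial list was 52700 and 51860 at day 3 and 60410 and 60060 at day 8, and the part of either list in the results below was not tested. In bulk RNA, fewer cells of a type and less RNA per cell cannot be told apart.

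From day 3 to day 8 with PLX4720, 154 genes rose (1.21% of the genes tested) and 162 fell (1.28%), 2.49% in all. Rises were larger than falls: 84 genes rose by over 1 on the log2 scale (0.663%) and 27 fell by over 1 (0.213%). Over the same days with DMSO 2326 genes rose (18.4%) and 2044 fell (16.1%), 34.5% in all, or 2621 genes in place of 4370 without DMSO day 3 replicate 1. The median change over all genes was 0.0136 with PLX4720 and 0.034 with DMSO. The median standard error of a gene was 0.179 in both, an equality that the shared estimate of the spread fixes. The difference between duplicates had a standard deviation over genes of 0.311 at day 3 and 0.3 at day 8 with PLX4720. With DMSO it was 0.329 at day 3 and 0.383 at day 8. Of the 154 genes that rose with PLX4720, 106 (68.8%) also rose with DMSO, which is 4.56% of the DMSO rises. Of the 162 that fell, 94 (58%) also fell with DMSO, 4.6% of the DMSO falls. Another 33 genes that fell with PLX4720 rose with DMSO, and 5 that rose with PLX4720 fell with DMSO. Across genes, which are not independent replicates, the changes correlated at a Pearson r of 0.402 and a Spearman rho of 0.436, with no array in common.

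The count of genes past the test depended on each of the 4 PLX4720 arrays. It was 57 without day 3 replicate 1, 52 without day 3 replicate 2, 67 without day 8 replicate 1 and 38 without day 8 replicate 2. A fit of the 4 arrays alone, in which the spread comes from them only, passed 3 genes, ENPP2, RGS4 and TRPM6, and 2374 were under an unadjusted p of 0.05. Among the HT29 arrays, RGS4, TRPM6 and CNTNAP2 were above background on those of PLX4720 day 8 only, and were tested only because of those. SELENOP was above background on 1 DMSO day 8 array besides, so it too was tested only because of the PLX4720 day 8 arrays. Of the 83 genes past the test that are named below, 19 stayed past it whichever 1 of the 4 arrays was left out, and all 83 kept their direction in every setting tried. The 19 are RGS4, TRPM6, KCTD12, PRSS1, CNTNAP2, ENPP2, HEPACAM2, ELAPOR1, PAX4, UPK1A, SCG5, SELENOP, ADH6, RASD1, CDX1, CALB2, DTL, PARP9 and MX2.

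**Figure D1:**
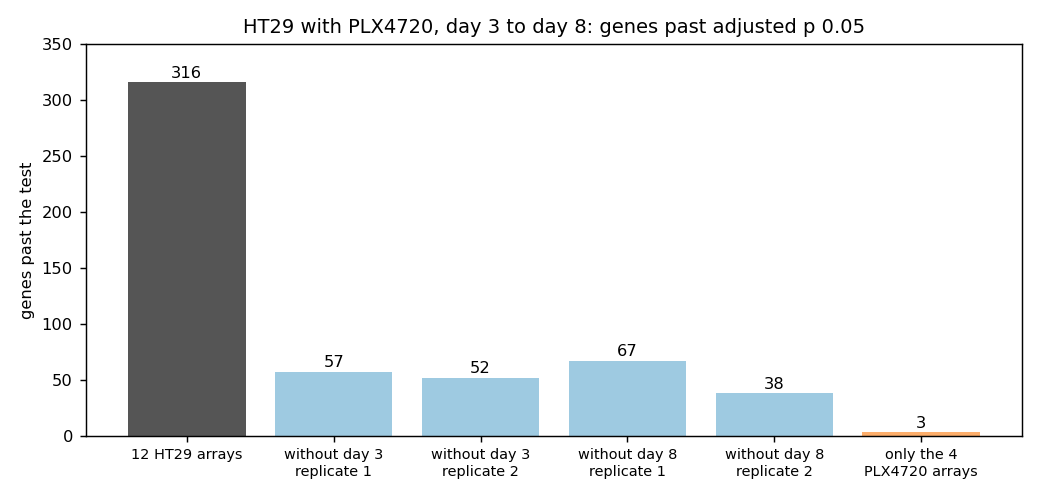
Number of HT29 genes past an adjusted p of 0.05 for the change from day 3 to day 8 with PLX4720 (bars, y axis) in the fit of 12 HT29 arrays, without each of the 4 PLX4720 arrays in turn, and with those 4 arrays alone (x axis). The count fell from 316 to between 38 and 67 when 1 array was left out, and to 3 with the 4 arrays alone.

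RGS4, a regulator of G protein signalling, stood at 4.48 and 4.51 on the day 3 arrays and 7.53 and 7.77 on the day 8 arrays, so that it was below background on both arrays at day 3 and at least 8.73-fold higher at day 8 (adjusted p = 5.64e-06). It stayed between 4.44 and 4.63 on the 4 DMSO arrays of the same days. TRPM6, a magnesium channel, stood at 4.26 and 4.28 on the day 3 arrays and 6.49 and 6.64 on the day 8 arrays, at least 4.11-fold higher (adjusted p = 0.000115). CNTNAP2, a neurexin-family adhesion protein, SELENOP, the plasma carrier of selenium, and NREP came from below background as well, at least 3.14-fold, 3.16-fold and 3.05-fold higher. SELENOP and NREP also rose with DMSO (0.95 and 0.90). These 5 were the largest by that bound among 21 genes that rose from below background, of 683 genes that were below background on both day 3 arrays only.

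Among genes measured on both days, the largest change was in PRSS1, a pancreatic trypsinogen whose probe may also read near-identical trypsinogens. It stood at 4.81 and 5.27 on the day 3 arrays and 7.96 and 8.05 on the day 8 arrays, a change of 2.96 ± 0.19, adjusted p = 0.000217, and the groups were far apart. With DMSO it was 4.61 and 4.34 at day 3 and 4.47 and 4.37 at day 8, below background on all 4 arrays. ENPP2, the secreted enzyme that makes lysophosphatidic acid, stood at 5.47 and 5.66 on the day 3 arrays and 8.48 and 8.42 on the day 8 arrays (2.88 ± 0.21, adjusted p = 0.000292). RASD1, a small Ras-related GTPase, changed by 2.44 ± 0.27, adjusted p = 0.00352, HEPACAM2, an immunoglobulin-family adhesion protein, by 2.36 ± 0.17, adjusted p = 0.000292, and KCTD12, an accessory subunit of the GABA-B receptor that was above background on 1 of 2 arrays at day 3, by 2.18 ± 0.13, adjusted p = 0.000165. ELAPOR1 and the uroplakin UPK1A changed by 1.96 ± 0.14 and 2.07 ± 0.18. The test of the difference between the changes was passed by PRSS1 (3.01 ± 0.27), ENPP2 (2.54 ± 0.29), HEPACAM2 (1.67 ± 0.24), KCTD12 (2.14 ± 0.19), ELAPOR1 (1.88 ± 0.19) and RASD1 (1.83 ± 0.38). On the DMSO arrays of both days ENPP2, KCTD12 and ELAPOR1 were below background too. KCTD12 and ELAPOR1 were above background on 1 HT29 array besides the 2 of PLX4720 day 8, so they were tested only because of those 2. UPK1A and HEPACAM2 rose with DMSO too (1.33 and 0.69), from below background on both DMSO day 3 arrays. The UPK1A difference of 0.74 ± 0.25, adjusted p = 0.104 did not pass. For RASD1 the difference was lost without 1 array in 6 of 8 cases, with an adjusted p of up to 0.0811.

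TMEM158, a membrane protein known to be induced by oncogenic Ras, rose with PLX4720 and fell with DMSO. It stood at 5.30 and 4.73 on the day 3 arrays and 6.97 and 7.07 on the day 8 arrays with PLX4720 (2.00 ± 0.24, adjusted p = 0.00459), and at 6.60 and 6.03 at day 3 and 5.22 and 5.28 at day 8 with DMSO (-1.07, adjusted p = 0.00798). The difference was 3.07 ± 0.34, adjusted p = 0.00109, and the rise itself had an adjusted p of 0.0615 without day 8 replicate 2. AGR3, a secretory-pathway disulphide isomerase (1.96 ± 0.30, adjusted p = 0.0136), TPPP3, a tubulin-binding protein (1.95 ± 0.37, adjusted p = 0.0306), and ANXA13, an annexin of intestinal epithelium (1.92 ± 0.30, adjusted p = 0.0145), completed the 12 largest rises. They rose with DMSO by 1.59, 2.01 and 1.91. Leaving out any 1 of the 4 PLX4720 arrays ended the call of these 3, with adjusted p from 0.0557 to 0.214.

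**Figure D2:**
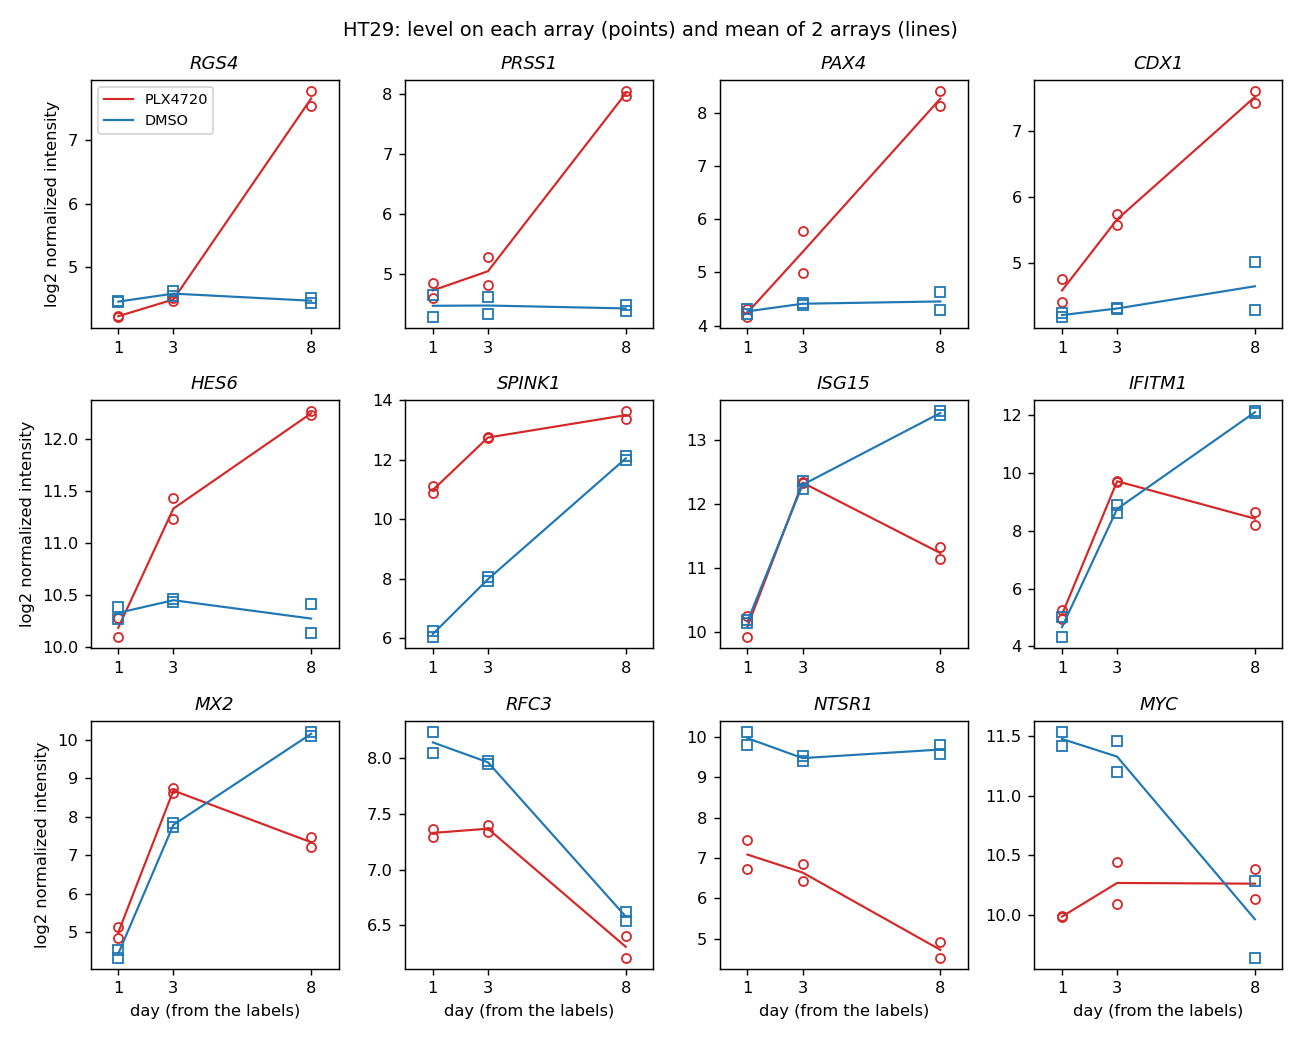
Log2 normalized intensity (y axis) of 12 genes on each HT29 array at days 1, 3 and 8 (x axis), with PLX4720 (red circles) and DMSO (blue squares). Lines join the means of the 2 arrays, and the y axes differ and do not start at 0. RGS4, PRSS1, PAX4 and CDX1 climb after day 3 with PLX4720, ISG15, IFITM1 and MX2 fall after day 3 with PLX4720 while they climb with DMSO, and RFC3 falls with both.

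CDX1 and CDX2 are the homeobox factors of intestinal identity. CDX1 stood at 5.58 and 5.74 on the day 3 arrays and 7.61 and 7.43 on the day 8 arrays (1.86 ± 0.22, adjusted p = 0.00459), and CDX2 at 5.44 and 5.41 on the day 3 arrays and 7.01 and 7.26 on the day 8 arrays (1.70 ± 0.25, adjusted p = 0.0123). FOXA2 and FOXA3, forkhead factors of secretory and enteroendocrine lineages, changed by 1.38 ± 0.19, adjusted p = 0.00955 and 0.68 ± 0.14, adjusted p = 0.0364. Thus 4 of 15 tested members of the list rose, where 1.21% of all genes rose, and none fell. The list median was 0.219 beside 0.0136 over all genes. With DMSO CDX1 and CDX2 changed by 0.34 (adjusted p = 0.274) and 0.60 (adjusted p = 0.0972). CDX1 was below background on all 4 DMSO arrays of these days, so its DMSO change and its difference rest in part on levels that were not measured. The difference passed for CDX1 (1.52 ± 0.31, adjusted p = 0.02) and missed for CDX2 (1.11 ± 0.36, adjusted p = 0.0903). Only CDX1 passed without each of the 4 arrays in turn, and CDX2, FOXA2 and FOXA3 then had adjusted p of up to 0.11, 0.0761 and 0.251. The CDX1 difference was lost without 1 array in 6 of 8 cases, at up to 0.0767.

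Genes of the enteroendocrine lineage, the hormone-secreting cells of the gut, were partly higher at day 8. Of 20 members with a probe 11 were tested, and the others had no probe above background on 2 HT29 arrays. Among the 11 tested members 4 rose, where 1.21% of all genes rose, none fell, and the list median was 0.663. Below background on both arrays of only 1 of the 2 days were 3 of the 11. For 8 of the 11 both day 8 arrays were above both day 3 arrays, an order that 27.6% of all genes showed. PAX4, a homeobox factor of early endocrine cells, stood at 4.99 and 5.77 on the day 3 arrays and 8.12 and 8.41 on the day 8 arrays (2.88 ± 0.24, adjusted p = 0.000665). SCG5, a granin-family chaperone of prohormone processing, stood at 5.84 and 5.94 on the day 3 arrays and 7.51 and 8.08 on the day 8 arrays (1.90 ± 0.19, adjusted p = 0.00197). INSM1, a zinc finger factor of endocrine progenitors (1.05 ± 0.20, adjusted p = 0.0294), and SCG2, secretogranin II (1.55 ± 0.32, adjusted p = 0.0409), rose with less margin. With DMSO these 4 changed by 0.04, 0.79, -0.64 and 0.46. PAX4 was below background on all 4 DMSO arrays of these days, and INSM1 on both at day 8. The DMSO changes and the differences of PAX4 and INSM1 thus rest in part on levels that were not measured. The difference passed for PAX4 (2.84 ± 0.33, adjusted p = 0.00157), INSM1 (1.69 ± 0.28, adjusted p = 0.0079) and SCG5 (1.11 ± 0.26, adjusted p = 0.0349), 3 of 11 members higher where 3.54% of all genes were. CHGA, chromogranin A and the usual marker of mature enteroendocrine cells, was below background on all 4 PLX4720 arrays. Of these 4, PAX4 and SCG5 passed whichever 1 array was left out, the others reaching 0.209 and 0.251, and the SCG5 difference was then lost in 7 of 8 cases (up to 0.103).

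Of 17 tested goblet and secretory cell genes 6 rose and none fell, with a median of 0.602, where 1.21% of all genes rose. With DMSO 12 rose and 1 fell, with a median of 1.5, where 18.4% of all genes rose. FCGBP, an Fc-binding mucus protein, stood at 8.40 and 8.45 on the day 3 arrays and 10.00 and 10.23 on the day 8 arrays (1.69 ± 0.20, adjusted p = 0.00467). AGR3 rose as given above, AGR2, the isomerase that folds mucins, by 0.80, and SPINK1, a trypsin inhibitor, by 0.75. SPINK4, a goblet cell peptide, and ATOH1, the master factor of the secretory lineage, rose from below background, at least 1.71-fold and 1.53-fold. TFF3, the goblet cell trefoil peptide, read 10.14 and 10.19 on the day 3 arrays and 11.17 and 11.41 on the day 8 arrays, a change of 1.13 ± 0.32, adjusted p = 0.121 that did not pass. SPINK1 and TFF3 changed less than with DMSO (4.06 and 3.21), with differences of -3.31 ± 0.20, adjusted p = 0.000125, and -2.08 ± 0.46, adjusted p = 0.0264. Both were already higher with PLX4720 than with DMSO at day 3. MUC2 had no probe above background on 2 HT29 arrays and was not tested. Without day 3 replicate 1, day 3 replicate 2, day 8 replicate 1 and day 8 replicate 2 in turn, 1, 1, 1 and 0 members rose. SPINK4 and ATOH1 failed in 10 and 11 of the settings tried.

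Among absorptive genes 3 of 24 tested rose, where 1.21% of all genes rose, and none fell (median 0.285). MYO1A, a brush border myosin, stood at 5.36 and 5.57 on the day 3 arrays and 7.14 and 7.24 on the day 8 arrays (1.72 ± 0.24, adjusted p = 0.0104), VIL1, villin, changed by 0.63 ± 0.10, adjusted p = 0.0189 and MUC13, a membrane mucin, by 0.82 ± 0.15, adjusted p = 0.0266. All 3 rose with DMSO as well, by 1.40, 0.51 and 1.43, and their differences did not pass. KRT20, a keratin of differentiated colon, read 10.93 and 10.89 on the day 3 arrays and 11.22 and 11.21 on the day 8 arrays and did not pass (0.31 ± 0.14, adjusted p = 0.316). Of 24 junction genes only CDH17, the liver-intestine cadherin, rose (0.85 ± 0.15, adjusted p = 0.0231), by less than with DMSO (1.85). E-cadherin (CDH1) changed by 0.29 ± 0.16, adjusted p = 0.431 and CLDN1 by 0.27 ± 0.18, adjusted p = 0.516. HES6, a Notch-antagonising factor of the HES family, was the 1 of 11 Notch pathway genes that rose, from 11.23 and 11.43 on the day 3 arrays to 12.23 and 12.26 on the day 8 arrays (0.92 ± 0.14, adjusted p = 0.0123), with a difference from DMSO of 1.09 ± 0.19, adjusted p = 0.00992. BAMBI, a decoy receptor of the BMP and TGF-beta pathway (0.66 ± 0.13, adjusted p = 0.0317), was the 1 of 12 in its list, with a difference of 1.05 ± 0.18, adjusted p = 0.0088. None of 14 stem cell and Wnt target genes changed past the test, including LGR5, a stem cell receptor (0.22 ± 0.32, adjusted p = 0.798), and ASCL2 (0.13 ± 0.16, adjusted p = 0.76), and 3 of the 14 had an unadjusted p under 0.05 (limma). For MYO1A, VIL1, MUC13, CDH17, HES6 and BAMBI, leaving out any 1 of the 4 arrays ended the call, at adjusted p from 0.0557 to 0.23.

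Of 28 tested interferon-stimulated genes 13 fell with PLX4720 where 1.28% of all genes fell, none rose, all 28 had a negative change, and the list median was -0.777. For 26 of the 28 both day 8 arrays were below both day 3 arrays, an order that 24.9% of all genes showed. With DMSO all 28 rose, where 18.4% of all genes rose, with a median of 1.56, and the difference passed for all 28, with a median of -2.27 beside -0.0229 over all genes, where 4.92% of all genes passed in that direction. Without each of 8 arrays in turn, 27 or 28 of these differences passed. The count of falls was less stable: without day 3 replicate 1, day 3 replicate 2, day 8 replicate 1 and day 8 replicate 2, 1, 0, 0 and 2 members fell. Over all settings tried 0 to 25 members fell, and the median lay between -0.851 and -0.658.

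ISG15, a ubiquitin-like antiviral protein, stood at 12.34 and 12.32 on the day 3 arrays and 11.14 and 11.32 on the day 8 arrays, a change of -1.10 ± 0.14, adjusted p = 0.00517. With DMSO it was 12.36 and 12.24 at day 3 and 13.40 and 13.45 at day 8, so that for ISG15 both agents were level at day 3 and well apart at day 8. IFITM1, a membrane protein that blocks virus entry, stood at 9.71 and 9.73 on the day 3 arrays and 8.21 and 8.64 on the day 8 arrays (-1.30 ± 0.23, adjusted p = 0.0262), and rose with DMSO by 3.35, a difference of -4.65 ± 0.33. At day 3 its mean was already higher with PLX4720 (9.72) than with DMSO (8.76), as was that of IFI44L (10.22 and 8.43). OAS3, an oligoadenylate synthetase (-1.15 ± 0.14, adjusted p = 0.00499), IFIT1, a sensor of viral RNA (-0.90 ± 0.14, adjusted p = 0.0149), IFITM3 (-0.89 ± 0.15, adjusted p = 0.0196) and IFI44L (-0.91 ± 0.18, adjusted p = 0.0366) fell as well. EPSTI1, IFIT3, MX1, USP18, IFITM2, SP110 and IRF9, an interferon regulatory factor, were the other members that fell, by -0.98 to -0.54. IFITM1, IFITM2 and IFITM3 are closely similar paralogs, and their probes may share signal. From day 1 to day 3 with PLX4720, a comparison that uses the same day 3 arrays, IFITM1 had changed by 4.62, IFI44L by 4.90, ISG15 by 2.25 and IFIT1 by 2.86. The DMSO means were also higher at day 3 than at day 1, for IFITM1 8.76 against 4.66 and for IFI44L 8.43 against 4.27. That early change was not tested against PLX4720, and IFITM1 was below background on both DMSO day 1 arrays.

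RefSeq promoters of GRCh38.p14, each 250 bases before to 50 bases after the gene start, were searched on both strands for the core of the interferon-stimulated response element, a pair of GAAA repeats with any 2 bases between them. Of 28 tested list members 22 were matched, and IFIT2, IFITM2, IRF7, OAS2, OASL and USP18 were not. The core was present in 15 of the 22 (68.2%), in 9 of the 11 matched members that fell, and in 996 of 27305 promoters in all (3.65%). The 9 that fell are shown because they moved together, each as 30 bases in the direction of the gene around the match nearest its 3′ end, with the core in capitals (TTTC repeats are the core read on the other strand). Matches of one promoter may overlap.
ISG15 (chr1:1013380-1013409, plus strand, log2 change -1.10): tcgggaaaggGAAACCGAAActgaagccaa
OAS3 (chr12:112938452-112938481, plus strand, log2 change -1.15): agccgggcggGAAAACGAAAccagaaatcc
IFITM1 (chr11:314024-314053, plus strand, log2 change -1.30): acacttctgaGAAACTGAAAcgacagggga
IFITM3 (chr11:320876-320905, minus strand, log2 change -0.89): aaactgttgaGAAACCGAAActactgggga
IFIT1 (chr10:89392510-89392539, plus strand, log2 change -0.90): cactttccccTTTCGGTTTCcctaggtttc
IFIT3 (chr10:89327865-89327894, plus strand, log2 change -0.93): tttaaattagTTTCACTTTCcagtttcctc
IFI44L (chr1:78620365-78620394, plus strand, log2 change -0.91): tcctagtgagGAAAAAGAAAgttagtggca
MX1 (chr21:41420559-41420588, plus strand, log2 change -0.90): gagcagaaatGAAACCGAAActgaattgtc
EPSTI1 (chr13:42992272-42992301, minus strand, log2 change -0.98): ctgattctgaGAAACCGAAActcagctgtt
These matches describe letters in the promoters and are not evidence of binding. BST2, IFI6, IFI27, IFI44, ISG20 and LGALS3BP also held the core, with changes of -0.32, -0.14, -0.55, -0.61, -0.75 and -0.02 that did not pass.

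Genes outside that list that interferon is known to induce were also among the 12 largest falls. CXCL10, an interferon-induced chemokine, stood at 8.59 and 8.45 on the day 3 arrays and 6.69 and 6.95 on the day 8 arrays (-1.70 ± 0.24, adjusted p = 0.0103). MX2, an antiviral GTPase, stood at 8.73 and 8.62 on the day 3 arrays and 7.21 and 7.46 on the day 8 arrays (-1.34 ± 0.15, adjusted p = 0.00352), PARP9 at 10.51 and 10.50 on the day 3 arrays and 9.24 and 9.21 on the day 8 arrays (-1.28 ± 0.14, adjusted p = 0.00352). LAMP3 (-1.48 ± 0.22, adjusted p = 0.0135) and UBD, a ubiquitin-like modifier (-1.50 ± 0.26, adjusted p = 0.0237), fell too. With DMSO CXCL10, MX2, PARP9 and LAMP3 rose, by 0.94, 2.36, 1.62 and 1.98, and each difference passed, at -2.64 ± 0.34, -3.71 ± 0.21, -2.90 ± 0.20 and -3.46 ± 0.32. Their day 3 means were already higher with PLX4720 (8.52, 8.68, 10.50 and 7.76) than with DMSO (6.54, 7.78, 9.64 and 6.09). UBD did not pass with DMSO (-0.30, adjusted p = 0.416), nor did its difference (-1.20 ± 0.37, adjusted p = 0.0792). In antigen presentation by MHC class I, PSMB9, an immunoproteasome subunit (-1.06 ± 0.22, adjusted p = 0.0415), and the peptide transporter subunit TAP2 (-0.77 ± 0.12, adjusted p = 0.0133) were the 2 of 14 tested genes that fell, where 1.28% of all genes fell. TAP1 read 9.79 and 9.61 on the day 3 arrays and 8.86 and 8.84 on the day 8 arrays and missed the test (-0.85 ± 0.21, adjusted p = 0.0748), and B2M changed by -0.29 ± 0.11, adjusted p = 0.231. HLA-B, whose probe may read other class I genes, and HCP5 changed by 0.38 ± 0.29 and 0.43 ± 0.18 with PLX4720 and by 4.77 and 4.62 with DMSO, with differences of -4.39 ± 0.40, adjusted p = 0.000463, and -4.19 ± 0.26, adjusted p = 0.000125. Among all genes tested 18.4% rose with DMSO, and 4.92% had a difference that passed downward. In all, 10 of the 14 rose with DMSO and 9 differences passed, in each of the 8 fits without 1 array too. MX2 and PARP9 passed whichever 1 of the 4 PLX4720 arrays was left out, whereas leaving out any 1 array ended the calls of CXCL10, LAMP3, UBD, TAP2 and PSMB9, at adjusted p up to 0.255.

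**Figure D3:**
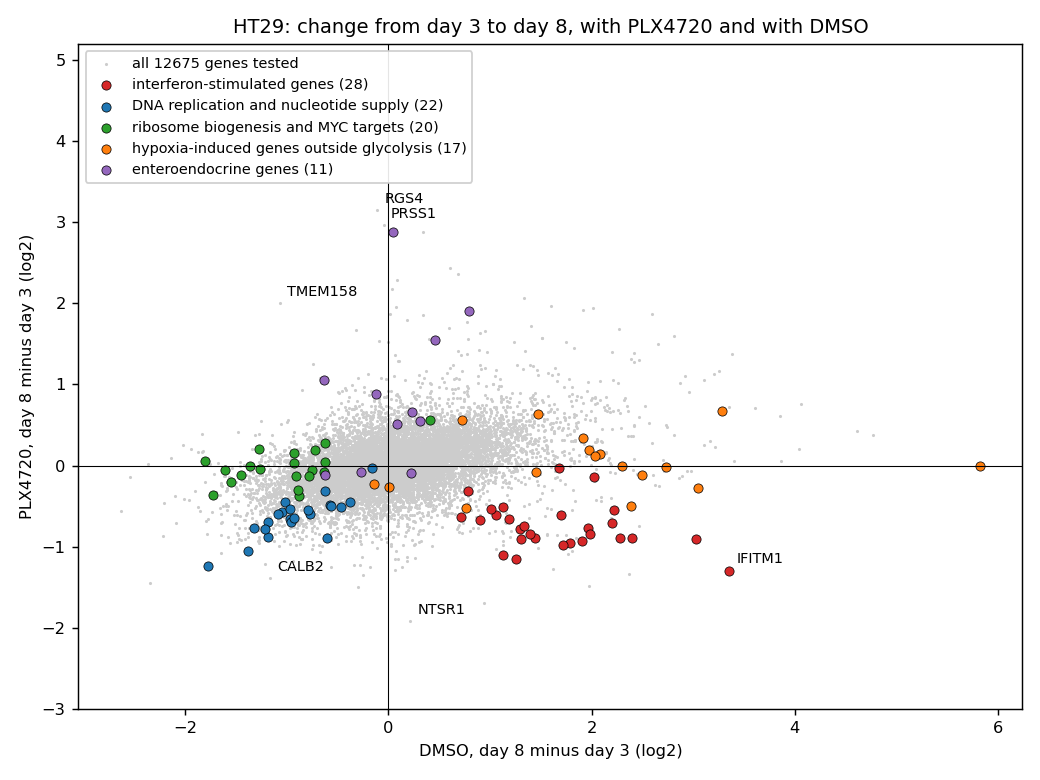
Change from day 3 to day 8 (log2) with PLX4720 (y axis) against that with DMSO (x axis) for 12675 genes (grey points), with 5 lists coloured. The 28 interferon-stimulated genes lie at the lower right, rising with DMSO and below 0 with PLX4720, most DNA replication genes at the lower left, and most ribosome biogenesis genes left of 0 and near 0 on the y axis.

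Of 22 tested genes of DNA replication and nucleotide supply 6 fell with PLX4720 (median -0.593), where 1.28% of all genes fell, and with DMSO 20 fell (median -0.963), where 16.1% did. The 6 were RFC3, a clamp loader subunit, TK1, thymidine kinase, MCM10, POLE2, a DNA polymerase epsilon subunit, CDC45 and PCNA. RFC3 stood at 7.34 and 7.40 on the day 3 arrays and 6.41 and 6.21 on the day 8 arrays (-1.06 ± 0.12, adjusted p = 0.00369) and TK1 at 10.51 and 10.34 on the day 3 arrays and 9.60 and 9.47 on the day 8 arrays (-0.89 ± 0.12, adjusted p = 0.00768). MCM10 and POLE2 changed by -0.88 ± 0.13, adjusted p = 0.0118, and -0.77 ± 0.13, adjusted p = 0.0241. For 21 of the 22 both day 8 arrays were below both day 3 arrays, as for 24.9% of all genes. None of the 22 differences from DMSO passed in either direction (limma, median difference 0.304, 3 under an unadjusted p of 0.05), nor in any of 8 fits without 1 array. DTL, which directs the destruction of the licensing factor CDT1, was outside the list and fell from 7.63 and 7.35 on the day 3 arrays to 6.25 and 6.23 on the day 8 arrays (-1.25 ± 0.13, adjusted p = 0.0029), and TRAIP, a ubiquitin ligase of the replisome, fell to below background, at least 1.8-fold lower. DTL fell with DMSO too (-0.56), and its difference of -0.69 ± 0.19, adjusted p = 0.0542 did not pass.

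Of 24 mitosis genes 4 fell with PLX4720 (median -0.577): BIRC5, survivin (-0.81 ± 0.11, adjusted p = 0.00955), PTTG1, securin (-0.77 ± 0.12, adjusted p = 0.0133), AURKB, aurora B kinase (-0.74 ± 0.15, adjusted p = 0.0364), and the kinesin KIF2C (-0.66 ± 0.13, adjusted p = 0.033). Again the share of all genes that fell was 1.28%. All 24 had both day 8 arrays below both day 3 arrays, as 24.9% of all genes had, and 20 of 24 fell with DMSO (median -0.73), where 16.1% of all genes fell. MKI67, the antigen Ki-67, read 6.48 and 6.51 on the day 3 arrays and 5.75 and 6.21 on the day 8 arrays and did not pass (-0.51 ± 0.27, adjusted p = 0.409). Without day 3 replicate 1, day 3 replicate 2, day 8 replicate 1 and day 8 replicate 2 in turn, 1, 3, 2 and 0 replication genes and 0, 0, 1 and 0 mitosis genes fell, and over all settings tried 0 to 17 and 0 to 18 fell. CDKN1A, the CDK inhibitor p21, rose from 8.96 and 9.08 on the day 3 arrays to 9.79 and 9.82 on the day 8 arrays (0.78 ± 0.15, adjusted p = 0.0291), as did SESN1, a p53 target (0.62 ± 0.12, adjusted p = 0.033), the 2 of 12 in their list, where 1.21% of all genes rose. With DMSO they changed by 1.28 and 0.20, and leaving out any 1 PLX4720 array ended both calls (adjusted p up to 0.241).

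**Figure D4:**
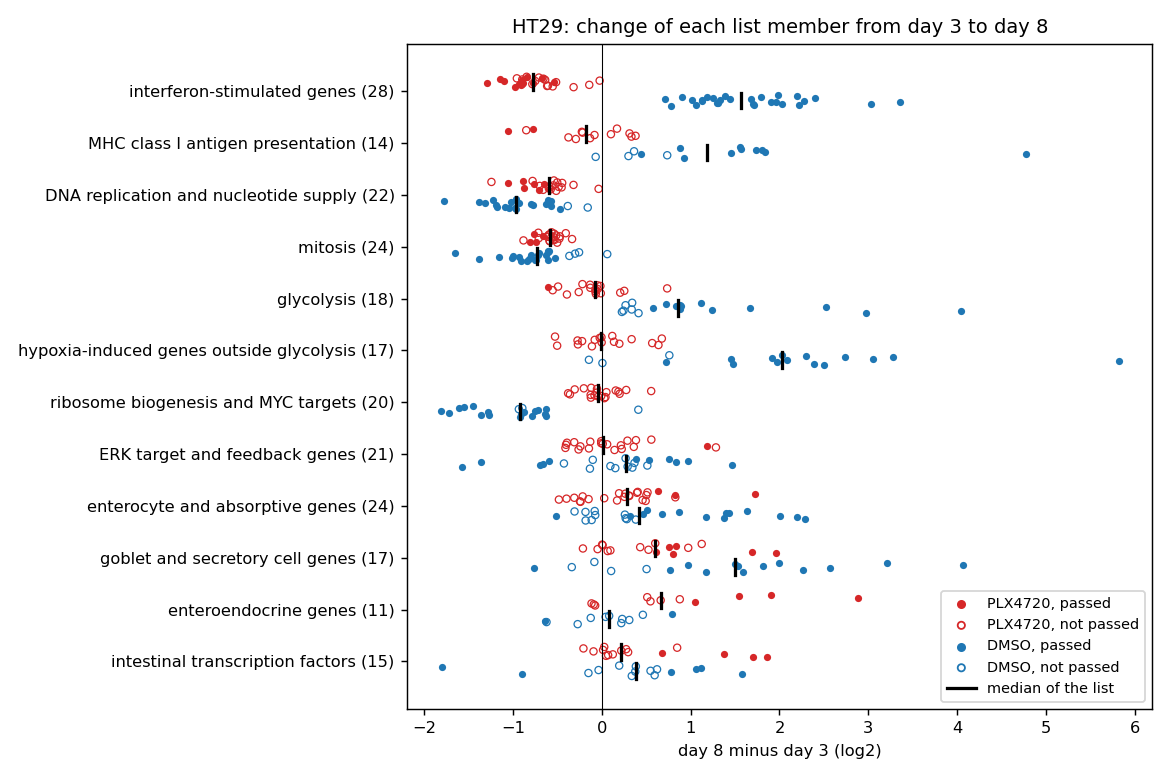
Change from day 3 to day 8 (log2, x axis) of each tested member of 12 gene lists (y axis, number tested in brackets) with PLX4720 (red) and DMSO (blue). Filled points passed an adjusted p of 0.05, open points did not, and black bars are list medians. The interferon medians lie on opposite sides of 0, the replication and mitosis medians below 0 with both agents, and the hypoxia medians at 2.03 with DMSO and near 0 with PLX4720.

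Of 21 tested ERK target and feedback genes only FOS, an immediate early factor, rose, from 6.35 and 6.05 on the day 3 arrays to 7.39 and 7.38 on the day 8 arrays (1.18 ± 0.17, adjusted p = 0.0104), and FOS rose with DMSO by 1.46. The share of all genes that rose with PLX4720 was 1.21%. DUSP6, the phosphatase of ERK, had a mean of 7.07 on the day 3 arrays and 7.30 on the day 8 arrays, and the groups overlapped (0.22 ± 0.17, adjusted p = 0.591). SPRY4, a feedback inhibitor, changed by 0.56 ± 0.15, adjusted p = 0.108, ETV5, a PEA3 factor, by -0.24 ± 0.11, adjusted p = 0.324, and CCND1, cyclin D1, by 0.14 ± 0.13, adjusted p = 0.663. On the DMSO arrays DUSP6 was 9.29 and 9.27 at day 3 and 9.46 and 9.79 at day 8, above every PLX4720 array. The FOS call was lost without day 3 replicate 2, day 8 replicate 1 or day 8 replicate 2, at up to 0.0934. MYC read 10.44 and 10.09 on the day 3 arrays and 10.39 and 10.14 on the day 8 arrays with PLX4720 (-0.01 ± 0.22, adjusted p = 0.991) and fell with DMSO by -1.36, so that the difference was 1.36 ± 0.31, adjusted p = 0.0291. EGR1, an immediate early factor, changed by -0.14 with PLX4720 and -1.57 with DMSO, a difference of 1.43 ± 0.25, adjusted p = 0.00947. The MYC difference was lost without 1 array in 5 of 8 cases, at up to 0.105.

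Of 17 tested hypoxia-induced genes outside glycolysis none passed with PLX4720 (limma, 4 under an unadjusted p of 0.05, median -0.00335), while 14 rose with DMSO (median 2.03), where 18.4% of all genes rose, and 12 differences passed in the downward direction, where 4.92% of all genes did. VEGFA, the angiogenic growth factor, read 7.04 and 6.77 on the day 3 arrays and 7.13 and 6.92 on the day 8 arrays with PLX4720 and 7.02 and 7.24 at day 3 and 9.32 and 9.01 at day 8 with DMSO, a difference of -1.92 ± 0.30, adjusted p = 0.00644. The hypoxia response element core ACGTG, on either strand, was in 7 of 14 matched promoters of the list and in 5900 of all (21.6%), with BNIP3L, NDRG1 and VEGFA unmatched. NDRG1 changed by 0.68 ± 0.18 and 3.28, and the histone demethylase KDM3A by 0.34 ± 0.14 and 1.92. Of 18 glycolysis genes, PFKP, a phosphofructokinase, fell (-0.61 ± 0.11, adjusted p = 0.0256), where 1.28% of all genes fell, and it rose with DMSO by 0.90. In that list 12 rose with DMSO and 10 differences passed downward, beside 18.4% and 4.92% of all genes. Among the 10 were hexokinase 2 (HK2, -1.44 ± 0.18, adjusted p = 0.00235) and the glucose transporter SLC2A1 (-1.25 ± 0.19, adjusted p = 0.00533). TXNIP, an arrestin induced by glucose, changed by 0.37 ± 0.11 with PLX4720 and 2.81 with DMSO. Ribosome biogenesis and MYC target genes showed the reverse: 17 of 20 fell with DMSO (median -0.919), where 16.1% of all genes fell, none passed with PLX4720 (limma, 3 under an unadjusted p of 0.05, median -0.0468), and 13 differences passed in the upward direction, where 3.54% of all genes did. NOLC1, a nucleolar chaperone, and SRM, spermidine synthase, had differences of 1.36 ± 0.20, adjusted p = 0.0049, and 1.35 ± 0.16, adjusted p = 0.00156. Without 1 array, 12 to 13 hypoxia, 6 to 10 glycolysis and 5 to 10 ribosome biogenesis differences passed.

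Over all genes, 1072 (8.46%) changed differently with PLX4720 than with DMSO, 449 more upward and 623 more downward. Without 1 of the 8 arrays the count was 440 (without DMSO day 3 replicate 1) to 1281 (without DMSO day 8 replicate 1), and it was at most 617 in the other 6 cases. The direction split depended on scaling: 449 to 623 became 297 to 689 with median scaling and 328 to 704 with cyclic loess. Among genes above background on at least 1 array of each of the 4 groups, the 6 largest upward differences were those of TMEM158 and of 5 genes that fell with DMSO and did not pass with PLX4720. MGP, matrix Gla protein, changed by -0.14 ± 0.29 and -2.55, the noncoding RNA DANCR by 0.09 ± 0.12 and -2.14, the small nucleolar RNA SNORD16 by 0.25 ± 0.25 and -2.02, the aldehyde dehydrogenase ALDH3A1 by -0.56 ± 0.15 and -2.63, and AKR1C2, one of several near-identical aldo-keto reductases, by 0.39 ± 0.30 and -1.83. AKR1C2 stood at 9.60 and 9.28 on the day 3 arrays and 10.07 and 9.58 on the day 8 arrays with PLX4720 and at 7.94 and 7.02 at day 3 and 5.61 and 5.69 at day 8 with DMSO.

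NTSR1, the neurotensin receptor, had the largest fall of a gene measured on both days. It stood at 6.43 and 6.85 on the day 3 arrays and 4.54 and 4.92 on the day 8 arrays (-1.92 ± 0.25, adjusted p = 0.00768) and at 9.42 and 9.54 at day 3 and 9.58 and 9.80 at day 8 with DMSO, where it was high throughout, and on 1 of 2 day 8 PLX4720 arrays it was no longer above background. The difference was -2.13 ± 0.36, adjusted p = 0.00825. Its fall was lost without day 3 replicate 2 or day 8 replicate 1, at up to 0.0617. CALB2, calretinin, stood at 7.29 and 7.38 on the day 3 arrays and 5.91 and 5.98 on the day 8 arrays (-1.39 ± 0.11, adjusted p = 0.000665), fell with DMSO from a far higher level (11.30 and 11.25 at day 3 and 10.11 and 10.10 at day 8), and had 1 probe of opposite sign that did not pass. With the mean of its probes the CALB2 change was -0.53 and the call ended. The cytokine IL32 (-1.29 ± 0.22, adjusted p = 0.0216), the cystatin CST1 (-1.25 ± 0.27, adjusted p = 0.0484) and PACSIN3, an endocytosis adaptor (-1.23 ± 0.25, adjusted p = 0.0366), completed the 12 largest falls, and leaving out any 1 array ended each call. Of 513 genes below background on both day 8 arrays only, 5 fell: SERPINA3, antichymotrypsin, at least 2.52-fold (it also fell with DMSO, by -2.35), the deubiquitinase USP2 2.21-fold, MFSD6L 1.83-fold, TRAIP as given above and CD52 1.69-fold lower (it also fell with DMSO, by -0.81). These 5 also missed the test without 1 array in at least 3 of 4 cases, at up to 0.258.

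MT2A, a metal-binding metallothionein, was the 1 of 11 genes of its list that fell, from 10.44 and 10.73 on the day 3 arrays to 9.47 and 9.40 on the day 8 arrays (-1.15 ± 0.18, adjusted p = 0.0155), with a difference from DMSO of -1.24 ± 0.26, adjusted p = 0.0209. The zinc importer SLC39A5 was the 1 that rose (1.51 ± 0.20, adjusted p = 0.00807), by less than with DMSO (2.65). With PLX4720 1.28% of all genes fell and 1.21% rose. ADH6, an alcohol dehydrogenase, was the 1 of 16 alcohol and retinol dehydrogenases that rose, from 6.11 and 6.27 on the day 3 arrays to 7.31 and 7.52 on the day 8 arrays (1.22 ± 0.13, adjusted p = 0.00241), and it also rose with DMSO (1.42, difference -0.20 ± 0.18, adjusted p = 0.541). ADH1A and ADH1C, near-identical relatives of each other, changed by 0.53 ± 0.14 and 0.56 ± 0.18 with PLX4720 and fell with DMSO by -0.79 and -0.98. CYP1A1, a target of the aryl hydrocarbon receptor, was high at 9.15 and 9.04 on the day 3 arrays and 9.85 and 9.55 on the day 8 arrays, and its change did not pass (0.60 ± 0.21, adjusted p = 0.204). Its DMSO arrays read 5.11 and 5.19 at day 3 and 4.49 and 5.11 at day 8. Leaving out 1 of the 4 arrays ended the call of MT2A in all 4 cases, of SLC39A5 in 3 and of ADH6 in 0.

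In Colo-205 with PLX4720 only 1 array existed per day, so values are given without a test, and day 10 takes the place of day 8. CDX1 read 5.29 at day 3 and 8.57 at day 10, and CDX2 5.45 at day 3 and 10.43 at day 10, both higher at the later day as in HT29. PRSS1 read 7.95 at day 3 and 9.18 at day 10. ISG15 read 8.89 at day 3 and 8.57 at day 10. AGR3, TPPP3 and ELAPOR1 were also higher and MX2 lower at day 10. Other genes read the opposite way to HT29, some by little. Lone arrays give no spread by which to judge these readings. UPK1A read 6.15 at day 3 and 5.46 at day 10, and CNTNAP2 8.98 and 8.28. DTL read 6.59 at day 3 and 7.31 at day 10, LAMP3 6.23 and 6.65, and PARP9 7.86 and 8.05. RGS4, TRPM6, ENPP2, HEPACAM2, PAX4, RASD1, KCTD12 and IFITM1 were above background on neither Colo-205 array.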

How the data were processed

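Total RNA of 18 cultures was hybridised to Illumina BeadChips, and each cell line lay on its own BeadChip. Per the file headers, the deposited table holds 1 linear intensity and 1 detection p-value per probe and array; neither its background treatment nor the way the detection p-value was computed is stated there or in the labels. The authors' processed intensities, whose normalization is not given, served as an alternative. All value columns were matched to samples by name (0 unmapped), and 4 probes lacking a value on some array were dropped. With limma 3.58.1 in R 4.3.3, background was corrected by normexp with parameters from the detection p-values and an offset of 16, which pulls changes of dim genes towards 0, followed by quantile normalization over 18 arrays and log2. Of the probes, 30113 had 1 gene symbol, 8 several and 17202 none; symbols were updated through Entrez identifiers to RefSeq (99.9% found). The probe with the highest mean stood for a gene. One model with 6 HT29 group means gave the change with PLX4720, with DMSO and their difference (lmFit, eBayes, Benjamini-Hochberg). p-values measure the spread between duplicates. A gene below background on every array of a group has a bound: the mean of the bright group over the higher, per array, of the lowest signal of a probe above background and the gene's own signal. The procedure was tested on simulated data. Members, gene lists (776 genes, 613 tested) and the naming rule (12 largest rises and falls measured on both days, 5 from and 5 to background, the 6 largest differences from DMSO each way among genes above background on at least 1 array of each of the 4 groups, the 4 smallest adjusted p per list, and fixed genes) were chosen with earlier results of these data known; not every gene they give is printed. Alternatives covered background, offset, scaling, filter, probe choice, spread, replicate block and leaving out each array.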

Additional observations from a re-analysis of the deposited data

Results flagged for a closer look

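A test of the difference between the PLX4720 and DMSO changes from day 3 to day 8 singled out 1072 genes, and 70 of the genes named here. Values in brackets are the PLX4720 change minus the DMSO change on the log2 scale (limma, adjusted p under 0.05). Of the 70, 56 passed whichever 1 of the 8 arrays was left out. The exceptions were RASD1, IL32, AKR1C2, TFF3, SCG5, CDX1, PROM1, CDH17, CLDN1, MYC, MT2A, SLC39A5, CEACAM1 and CEACAM6, with adjusted p from 0.0537 to 0.131 at most. No cause was tested.

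More upward with PLX4720, in fitted values with no ranking, were RGS4 (3.27), TMEM158 (3.07), PRSS1 (3.01), PAX4 (2.84), ENPP2 (2.54), MGP (2.4), SNORD16 (2.27), DANCR (2.24), AKR1C2 (2.22), TRPM6 (2.21), KCTD12 (2.14) and ALDH3A1 (2.07). Others were ELAPOR1 (1.88), CNTNAP2 (1.85), RASD1 (1.83), INSM1 (1.69), HEPACAM2 (1.67), ADH1C (1.55), CDX1 (1.52), EGR1 (1.43), NOLC1 (1.36), MYC (1.36), SRM (1.35), ADH1A (1.32), CLDN1 (1.2), SCG5 (1.11), HES6 (1.09) and BAMBI (1.05). RGS4, TRPM6 and CNTNAP2 were below background on both PLX4720 day 3 arrays and on all 4 DMSO arrays, and PRSS1, ENPP2, PAX4, KCTD12, ELAPOR1 and CDX1 on all 4 DMSO arrays. HEPACAM2 was below background on both DMSO day 3 arrays and INSM1 on both DMSO day 8 arrays, so that the fitted differences of these 11 genes rest in part on levels that were not measured.

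More downward with PLX4720 were interferon and antigen presentation genes: IFITM1 (-4.65), HLA-B (-4.39), HCP5 (-4.19), IFI44L (-3.93), MX2 (-3.71), LAMP3 (-3.46), IFITM3 (-3.16), PARP9 (-2.9), PSMB9 (-2.86), IFIT3 (-2.83), IFITM2 (-2.74), EPSTI1 (-2.7), CXCL10 (-2.64), TAP1 (-2.41), OAS3 (-2.4), MX1 (-2.34), USP18 (-2.23), ISG15 (-2.22), IFIT1 (-2.21), TAP2 (-1.66), SP110 (-1.57), IRF9 (-1.55) and B2M (-1.21). Genes of secretory, absorptive and stem cells were SPINK1 (-3.31), CEACAM6 (-2.59), TFF3 (-2.08), ASCL2 (-1.49), PROM1 (-1.19), CDH17 (-1) and CEACAM1 (-0.752). CEACAM1 and CEACAM6 are epithelial adhesion molecules, and PROM1 and ASCL2 mark progenitors. Genes of hypoxia and glucose use were NDRG1 (-2.61), TXNIP (-2.44), VEGFA (-1.92), KDM3A (-1.58), PFKP (-1.51), HK2 (-1.44) and SLC2A1 (-1.25). The others were NTSR1 (-2.13), IL32 (-1.36), MT2A (-1.24), SLC39A5 (-1.15) and BMP2 (-3.25). BMP2 is a bone morphogenetic protein, and its change was 0.61 ± 0.17 with PLX4720 and 3.86 with DMSO.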

How the results depend on the processing

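With PLX4720 the main count of 316 genes became 697 without background correction, 563 with an offset of 50, 713 from the authors' processed intensities, 632 with an intensity trend in the spread, 3 with only the 4 PLX4720 arrays and 111 when a change over 1 was also asked, and 38 to 67 without 1 array. With DMSO it went from 4370 to 1266 with a change over 1, and to 2621 to 4160 without 1 array. The difference count of 1072 became 1806, 1842, 1726 and 617 without background correction, from the authors' values, with the trend and with a change over 1, and 440 to 1281 without 1 array. Without 1 array 1 group rests on a lone array assumed to vary like the others; the other causes were not tested. Of 2215 comparisons of 126 genes of the naming rule with another setting, 1769 kept direction and side of the threshold, 9 changed the sign of a gene that had not passed, and 0 reversed a call; of 2593 for the difference the numbers were 2416, 46 and 0. For the largest rises and falls, leaving out 1 array could not reverse the PLX4720 change, since they were chosen without overlap between the days. The median PLX4720 change of all genes lay, over the settings, between 0.00614 and 0.0261. The labels state no pairing of samples by replicate number. Deviations of same-numbered PLX4720 arrays correlated at 0.0156 between days, and at -0.0197 to 0.13 over all pairs of groups. These low values do not show that the samples were unpaired. With the replicate block the counts were 320, 4577 and 1155. IFI44L, USP18, IFITM2, IRF9 and PSMB9 then lost the PLX4720 call, and the differences of CST1 (-1.39), DTL (-0.69) and USP2 (-1.21) passed. With the mean of a gene's probes CALB2, USP2, IFI44L, IFIT1, TAP2, PSMB9, BIRC5 and PCNA lost the PLX4720 call. The number of arrays limits the precision, and dim genes have only bounds.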
